A study of Mus musculus with 5 samples.

Results

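The SR proteins and the hnRNPs are the best known families of proteins that decide which exons of a transcript are kept, and their transcripts were followed here among the RNAs recovered with an anti-Staufen1 antibody from mouse muscle stem cells (MuSCs). Members were chosen by symbol alone, as every row named Srsf with a number (10 genes) or Hnrnp with a suffix (20 genes), which gave 30 of the 11194 genes in the count table. RefSeq lists 31 mouse symbols of that form. Srsf12 was not among the rows analysed. There were 2 genotypes: 3 libraries are labelled Stau+/+ (wild type 1 to 3) and 2 are labelled Stau-/- (knockout 1 and 2), and all 5 were immunoprecipitated with the same rabbit antibody from 400000 cells each. The Stau-/- libraries thus serve as the design's measure of RNA recovered without Staufen1. RNA was copied from 100 pg with oligo(dT) priming, amplified, and read as 101-base pairs. Strain, age, sex, the kind of Staufen allele and whether libraries of a genotype came from separate animals are not given in the labels. All p-values therefore measure no more than how these 5 samples spread, which can be technical. No input RNA was analysed here, so transcript abundance in the cells and recovery by the antibody cannot be told apart, nor can fewer cells of a type and less RNA per cell.

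SR proteins carry RNA recognition motifs and a tail rich in arginine and serine; bound to exonic enhancers they recruit the U1 and U2AF factors to the neighbouring splice sites. hnRNPs coat nascent transcripts and often act against them by silencing exons, and several shuttle to the cytoplasm, where they affect mRNA transport, decay and translation. Many genes of both families limit their own output by splicing in a poison exon or keeping an intron, which sends the transcript to decay or holds it in the nucleus. Staufen1 binds double-stranded RNA and has its own decay pathway, and counts over whole genes cannot tell one isoform from another.

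The libraries differed in depth and in their marker genes. Wild type libraries held 33846391 to 105473455 counts and knockout libraries 3091302 and 9370244, with no overlap in depth, and depth and genotype cannot be told apart. Stau1 itself, which checks the labels, had 104.3, 126.8 and 118.2 CPM (read counts relative to the library total, scaled by the TMM method) in wild type and 109.0 and 110.7 CPM in knockout (log2 fold change 0.08, SE 0.19, interval -0.32 to 0.49, adjusted p = 0.847, edgeR). Stau1 RNA was thus not lower in the libraries labelled knockout. With the allele not given and counts summed over the whole gene, this neither bears out the genotype nor speaks against it, and below, knockout and wild type mean the libraries so labelled. All 15 muscle stem cell markers looked up were measured, with Pax7 at 181 to 263 CPM, and 4 of the 15 were called higher in wild type, where 2.05% of all genes were called in either direction. The summed CPM of the 15 was 5140 to 5850 in wild type against 3289 and 3351 in knockout. Of 18 endothelial markers 6 were called higher in knockout, with summed levels of 1748 to 2424 CPM in wild type against 3649 and 3927 CPM. Muscle fibre genes (15 of 18 measured, 1 called) summed to 928 to 1057 CPM in wild type, 817 CPM in knockout 1 and 3416 CPM in knockout 2. Of 12 fibro-adipogenic markers 2 were called higher in wild type and 1 in knockout, of 4 erythroid markers 3 were called higher in knockout, and of 6 glial markers 1 was. None of 10 pericyte and 9 macrophage markers was called, while 3 and 1 of them had an unadjusted edgeR p under 0.05, against 20.4% of all genes. None of the markers was at 0 in any library, and their part in the values below was not tested.

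All members were well covered, from 46 counts (Srsf4 in knockout 2) to 114568 counts (Srsf5 in wild type 3). Levels between genes were compared as RPKM, the CPM divided by the gene's exon length in kilobases. The median over members of the 5-library mean was 51.7 RPKM, against 6.95 RPKM over all genes. By family it was 55.0 RPKM for Srsf and 44.3 RPKM for Hnrnp. Srsf5, an SR protein with paired RNA recognition motifs, stood at the top with 242, 417 and 405 RPKM in wild type 1 to 3 and 548 and 494 RPKM in knockout 1 and 2. Srsf7, which has a zinc knuckle beside its RNA recognition motif, followed with 170, 220 and 222 RPKM against 256 and 308 RPKM. For both genes wild type 1 was the lowest library, and both knockout libraries lay above all wild type libraries. The strongest hnRNP genes were Hnrnpc, which binds uridine tracts and stays in the nucleus, and Hnrnpa2b1, a splicing silencer that also takes part in RNA transport. Hnrnpc had 150, 139 and 131 RPKM in wild type and 126 and 134 RPKM in knockout. Hnrnpa2b1 had 132, 128 and 109 RPKM in wild type and 141 and 111 RPKM in knockout. The genotypes overlapped for both genes. Hnrnpc was above Hnrnpa2b1 in every wild type library and in knockout 2, and below it in knockout 1. The difference between these genes was not tested. Srsf4 was the lowest of the 30, with 6.91, 5.65 and 5.63 RPKM against 2.68 and 4.11 RPKM.

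**Figure D1:**
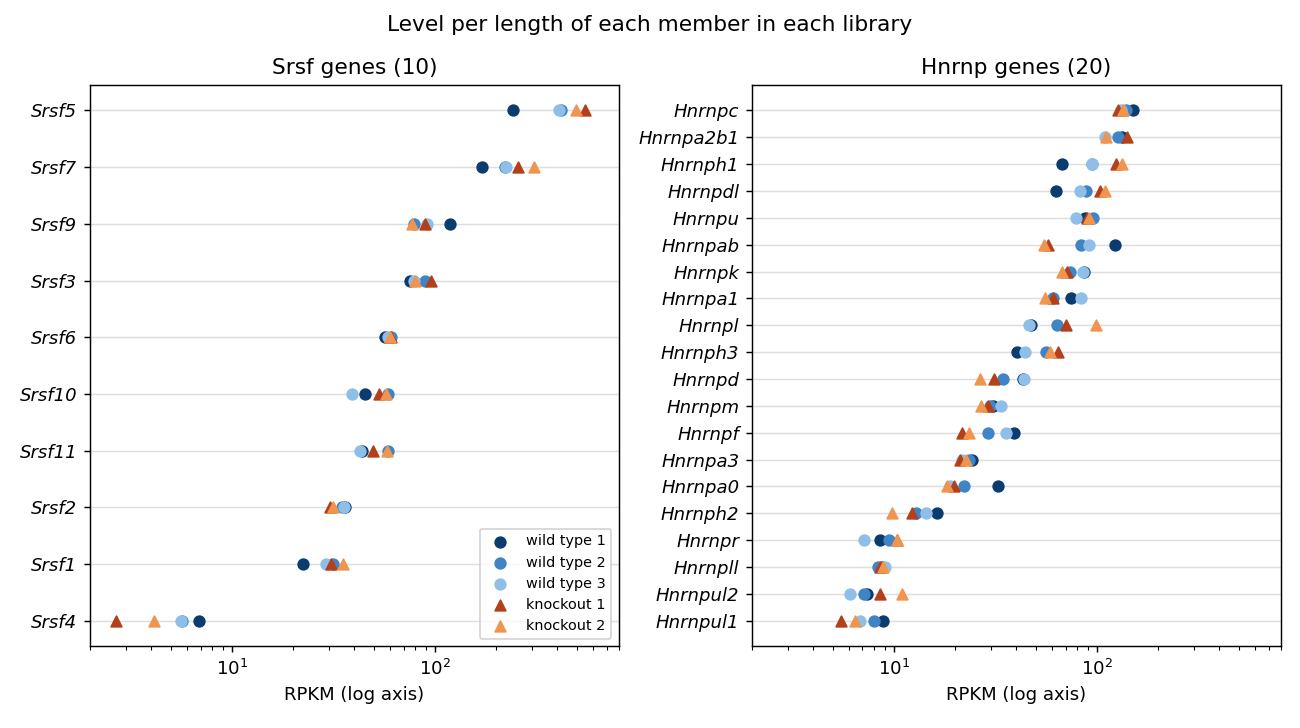
Level per length (RPKM, log axis) of the 10 Srsf genes (left) and 20 Hnrnp genes (right) in each library; circles are the 3 wild type libraries and triangles the 2 knockout libraries, with genes ordered by mean level. Srsf5 and Srsf7 lie furthest right, with both triangles beyond all circles, while for Srsf6, Hnrnpc and Hnrnpll the symbols lie on top of each other.

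No member passed the genotype test. With edgeR, 0 of 30 had a Benjamini-Hochberg adjusted p below 0.05, against 2.05% of all 11194 genes (1.05% higher in wild type, 1.00% higher in knockout) and 2.83% of the 6810 genes at or above the mean CPM of the lowest member, 17.8. limma-voom also called 0 of 30, where it called 0.197% of all genes, and DESeq2 called 3 of 30 (Hnrnpab, Hnrnph1 and Hnrnpl), where it called 7.95% of all genes. At an unadjusted edgeR p under 0.05 there were 10 of 30 members, 4 with higher values in wild type (Srsf4, Hnrnpab, Hnrnpd and Hnrnpf) and 6 with higher values in knockout (Srsf5, Srsf7, Hnrnpl, Hnrnph1, Hnrnpdl and Hnrnpul2). This was 33.3% of the members against 20.4% of all genes (10.4% higher in wild type, 9.99% higher in knockout) and 23.7% of those 6810. The 2 genotypes did not overlap for 18 of 30 members, 60.0%, against 38.4% of all genes (20.4% with wild type above, 18.1% with knockout above) and 41.3% of those 6810.

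The log2 fold changes, wild type over knockout, ran from -0.68 (Hnrnpl) to 0.87 (Srsf4), so that all 30 point estimates were under 2-fold, and their median absolute size was 0.32 against 0.33 over all genes and 0.28 over the 6810 at member levels. It was 0.21 for Srsf and 0.38 for Hnrnp. For 24 of the 30 the 95% interval lay within 2-fold in either direction, which was so for 48.8% of all genes and for 72.1% of the 6810 at member levels. The exceptions were Srsf4, Srsf5, Hnrnpab, Hnrnpl, Hnrnph1 and Hnrnpf, for which a 2-fold difference in 1 direction lies inside the interval. Of the rest, Hnrnpll, whose protein regulates the splicing of the leukocyte gene Ptprc, had the value nearest to 0, at 0.01 (interval -0.39 to 0.40). Srsf6 was at -0.04 (-0.41 to 0.33), Hnrnpa2b1 at -0.03 (-0.43 to 0.37) and Hnrnpu, the scaffold attachment factor, at -0.05 (-0.42 to 0.33).

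**Figure D2:**
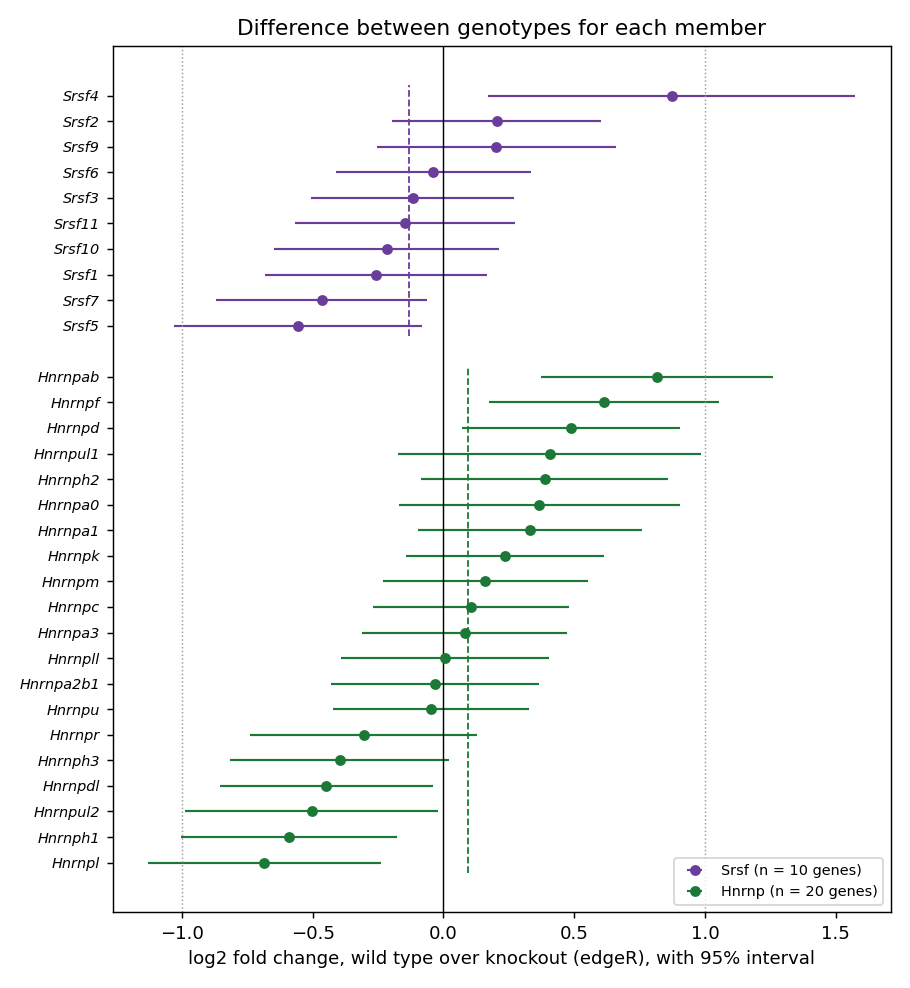
Log2 fold change of wild type over knockout for each member (points) with its 95% interval (lines), from the edgeR fit on 3 wild type and 2 knockout libraries; dashed lines are the family medians, -0.13 for Srsf and 0.09 for Hnrnp, and dotted lines mark 2-fold. Members of both families lie on both sides of 0, from Srsf4 and Hnrnpab at the right to Srsf5 and Hnrnpl at the left.

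Among the SR genes, Srsf4 (chromosome 4, 131873617 to 131901706, plus strand, mm10), an SR protein with a long arginine-serine tail, had the smallest p. Its CPM was 24.6, 20.1 and 20.1 in wild type and 9.53 and 14.6 in knockout, with means of 21.6 ± 2.61 (SD, n = 3) and 12.1 ± 3.61 (SD, n = 2). The groups did not overlap, with only 91 and 46 counts behind the knockout values. On the log2 scale the difference was 0.87 (SE 0.33, adjusted p = 0.156, edgeR). Without knockout 1 it was 0.56, and without knockout 2 it was 1.18. Srsf4 overlaps the noncoding gene Gm12992.

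Srsf5 (chromosome 12, 80945504 to 80950507, plus strand) had 965, 1663 and 1614 CPM in wild type and 2186 and 1969 CPM in knockout. Wild type 1 stood far below the other wild type libraries, and both knockout libraries were above all of them. Mean CPM was 1414 ± 390 in wild type (SD, n = 3) and 2078 ± 153 in knockout (SD, n = 2), with a log2 fold change of -0.56 (SE 0.22, adjusted p = 0.180, edgeR). Without wild type 1 it was -0.35 (adjusted p = 0.418, edgeR), and without wild type 2 it was -0.69 (adjusted p = 0.115, edgeR). Srsf7 (chromosome 17, 80200089 to 80207305, minus strand) had 387.7, 502.3 and 506.5 CPM in wild type and 584.0 and 701.1 CPM in knockout. Again wild type 1 was the lowest and the groups did not overlap, with a log2 fold change of -0.46 (SE 0.19, adjusted p = 0.185, edgeR). Srsf1 (chromosome 11, 88047373 to 88053755, plus strand), one of the first SR proteins described, had 127.5, 178.5 and 166.1 CPM against 175.7 and 201.1 CPM. Knockout 1 lay among the wild type values, and the log2 difference was -0.26 (SE 0.20, adjusted p = 0.5003, edgeR). Without wild type 1 it was -0.13 and without knockout 2 it was -0.16, while without wild type 2 or without knockout 1 it was -0.35.

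The other SR genes lay closer to 0. Srsf2, the nuclear speckle protein SC35, was at 0.20 with tight groups, 105.3 ± 2.02 CPM in wild type (SD, n = 3) and 91.4 ± 2.07 CPM in knockout (SD, n = 2), which did not overlap; it overlaps Mfsd11. Srsf9, the close relative of Srsf1, was at 0.20, and Srsf3, which also links splicing to mRNA export, at -0.12. The SR-like genes Srsf10, a splicing repressor when dephosphorylated, and Srsf11 were at -0.22 and -0.15. For the last 4 genes the groups overlapped, and the edgeR adjusted p was 0.582 to 0.770. Their values depended on single libraries. Leaving out 1 library moved Srsf9 between 0.02 (without wild type 1) and 0.33 (without wild type 2), and Srsf3 between -0.25 (without knockout 2) and 0.03 (without knockout 1). Srsf10 ran from -0.39 (without wild type 2) to -0.10 (without wild type 3), and Srsf11 from -0.30 (without wild type 2) to -0.02 (without knockout 2). In total 2 SR genes lay wholly above in wild type (Srsf2 and Srsf4), 2 wholly above in knockout (Srsf5 and Srsf7) and 6 overlapped, a non-overlapping share of 40.0%, close to the 38.4% of all genes.

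Among the hnRNP genes, members of the D group lay on opposite sides of 0. Hnrnpab (chromosome 11, 51600100 to 51606847, minus strand), a D-type hnRNP also known as CArG-binding factor A, had the smallest p of all 30 members. It had 340.5, 231.6 and 254.7 CPM in wild type and 160.3 and 152.4 CPM in knockout, with means of 276 ± 57.4 (SD, n = 3) and 156 ± 5.63 CPM (SD, n = 2), a 1.76-fold difference in the fit. All wild type libraries lay above both knockout libraries, wild type 1 highest. On the log2 scale the difference was 0.82 (SE 0.21, interval 0.37 to 1.26, adjusted p = 0.0553, edgeR), just above the threshold. It passed at 0.0453 among genes with at least 10 counts in every library, where 2.82% of genes were called. After thinning all libraries to the depth of the shallowest it passed at 0.0446, with 3.53% of genes called, and without wild type 2 at 0.0331, with 3.11% called, all in edgeR. It did not pass without wild type 1 (adjusted p = 0.1635, edgeR) or without wild type 3 (adjusted p = 0.1437, edgeR). The log2 difference was 0.86 without knockout 1 and 0.78 without knockout 2. Its adjusted p ran from 0.00702 (DESeq2) to 0.210 (limma-voom) over all alternatives. Hnrnpab overlaps Phykpl, and reads of the pair may be shared.

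Hnrnpd (AUF1), which promotes the decay of mRNAs with AU-rich elements, was likewise higher in every wild type library, at 197 ± 25.2 (SD, n = 3) against 140 ± 15.2 CPM (SD, n = 2), a log2 difference of 0.49 (adjusted p = 0.180, edgeR). Its closest relative Hnrnpdl lay the other way, at 376 ± 64.0 (SD, n = 3) against 513 ± 22.0 CPM (SD, n = 2), a log2 difference of -0.45 (adjusted p = 0.203, edgeR). Both lie on the minus strand of chromosome 5, Hnrnpd at 99958426 to 99978938 and Hnrnpdl at 100033577 to 100039664. Hnrnpd overlaps Gm42127 and 4930524J08Rik, and Hnrnpdl overlaps Enoph1.

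The F and H group, which binds runs of guanines, also held members on both sides. Hnrnpf (chromosome 6, 117900324 to 117925622, plus strand) had 123.6, 92.6 and 112.8 CPM in wild type and 68.9 and 74.8 CPM in knockout, all wild type libraries being higher. Its log2 difference was 0.61 (SE 0.21, adjusted p = 0.115, edgeR), and it overlaps 4933440N22Rik. Hnrnph1 (chromosome 11, 50376990 to 50386528, plus strand) had 391.5, 553.0 and 550.0 CPM in wild type and 720.5 and 778.4 CPM in knockout, both knockout libraries being higher. Its log2 difference was -0.59 (SE 0.19, adjusted p = 0.107, edgeR), and DESeq2 gave an adjusted p of 0.0344. Hnrnph2 was at 0.39 and Hnrnph3 at -0.40 (adjusted p = 0.344 and 0.270, edgeR), both without overlap between the groups. Without knockout 2, Hnrnph2 was at 0.24, and without knockout 1 it was at 0.57. F, H1 and H2 are close in sequence, so reads that fit more than one of them may have been split or dropped, and Hnrnph3 overlaps Rufy2 and Pbld2.

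Hnrnpl (chromosome 7, 28808541 to 28822266, plus strand), which binds CA repeats, had the most negative value of all members. It had 281.9, 378.6 and 275.4 CPM in wild type and 418.4 and 585.7 CPM in knockout, with both knockout libraries on top but far from each other. On the log2 scale the difference was -0.68 (SE 0.21, adjusted p = 0.0882, edgeR); without knockout 2 it was -0.42 (adjusted p = 0.412) and without wild type 2 it was -0.84 (adjusted p = 0.0438), by the same test. Of the U group, the chromatin-associated hnRNPs, Hnrnpul2 was at -0.50 (39.3 ± 4.00 CPM, SD, n = 3, against 56.1 ± 9.81 CPM, SD, n = 2) and Hnrnpul1 at 0.41 (28.2 ± 3.66 CPM, SD, n = 3, against 21.5 ± 2.50 CPM, SD, n = 2), both without overlap (adjusted p = 0.224 and 0.426, edgeR). Without knockout 2, Hnrnpul2 was at -0.32, and without knockout 1 it was at -0.68.

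The remaining hnRNP genes had smaller differences. In the A group, the classical exon silencers, Hnrnpa1 was at 0.33 and Hnrnpa0, a gene of 1 exon block, at 0.37, the latter with 86.9 CPM in wild type 1 against 59.5 and 50.5 CPM in the other wild type libraries and 53.0 and 48.7 CPM in knockout. Without wild type 1 Hnrnpa0 was at 0.10, and without wild type 3 it was at 0.52. Hnrnpa1 was at 0.21 without wild type 3 and at 0.45 without wild type 2. Hnrnpa3 was at 0.08 and Hnrnpa2b1 at -0.03. Hnrnpk, a KH-domain protein that binds cytidine tracts, was at 0.24 and overlaps Mir7-1 and Rmi1. Hnrnpc was at 0.11, Hnrnpm, which overlaps Marchf2, at 0.16 and Hnrnpr at -0.31. The smallest edgeR adjusted p among these genes was 0.375, that of Hnrnpa1. Hnrnpc was at 0.05 without wild type 1 and at 0.15 without knockout 2. Hnrnpm was at 0.10 without wild type 3 and at 0.22 without knockout 1. Hnrnpa3 was at 0.03 without knockout 1 and at 0.13 without knockout 2. Over the family, 8 of 20 lay wholly above in wild type, 6 wholly above in knockout and 6 overlapped, a non-overlapping share of 70.0% against 38.4% of all genes and 41.3% of the genes at member levels. Processed pseudogenes are known for several members, Hnrnpa1 and Hnrnpa3 among them, and how reads shared with such copies were counted is not given in the sources used here.

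Ratios between relatives within a library do not depend on how libraries are scaled. They were formed for 16 pairs, some of which share a gene. The pairs and the order of the genes in them were chosen with the values known, and no test was made. The groups did not overlap for 10 of the 16 pairs and overlapped for 6. Among the 6 were Hnrnph3 per Hnrnph1, Hnrnpf per Hnrnph2, Hnrnpa1 per Hnrnpa2b1 and Hnrnpa1 per Hnrnpa3. The share of other gene pairs without overlap was not computed. Hnrnpab per Hnrnpdl (RPKM over RPKM) was 1.94, 0.939 and 1.11 in wild type 1 to 3 and 0.559 and 0.4997 in knockout 1 and 2. Hnrnpd per Hnrnpdl was 0.689, 0.390 and 0.530 against 0.301 and 0.243. In both the mean log2 ratio was higher in wild type, by 1.26 and 0.95, and the groups did not overlap. That lack of overlap was fixed by the member values. The first gene lay wholly above in wild type and the second wholly above in knockout, so their ratio cannot overlap. The same holds for Hnrnpf and Hnrnph2 per Hnrnph1, Hnrnpul1 per Hnrnpul2 and Srsf4 per Srsf5.

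Hnrnpf per Hnrnph1 was 0.580, 0.308 and 0.377 in wild type and 0.176 in each knockout library, a difference in mean log2 ratio of 1.21. The wild type libraries thus spread more widely than the knockout libraries but stayed above them. Hnrnpul1 per Hnrnpul2 was 1.19, 1.12 and 1.12 against 0.640 and 0.588, so that Hnrnpul1 was the stronger of the pair per length in wild type and the weaker in knockout. Of the 16 pairs it had the lowest wild type SD, with mean log2 values of 0.19 ± 0.05 (SD, n = 3) and -0.71 ± 0.09 (SD, n = 2). Behind the knockout ratios were 188 and 73 counts of Hnrnpul1 and 469 and 198 counts of Hnrnpul2. Which gene of the pair is the stronger also depends on the exon lengths used. Among the SR genes, Srsf4 per Srsf5 was 0.0286, 0.0136 and 0.0139 in wild type and 0.00488 and 0.00832 in knockout. Srsf6 per Srsf5 was 0.234, 0.146 and 0.145 against 0.110 and 0.122, without overlap, whereas Srsf3 per Srsf7 and Srsf9 per Srsf1 overlapped between the genotypes.

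**Figure D3:**
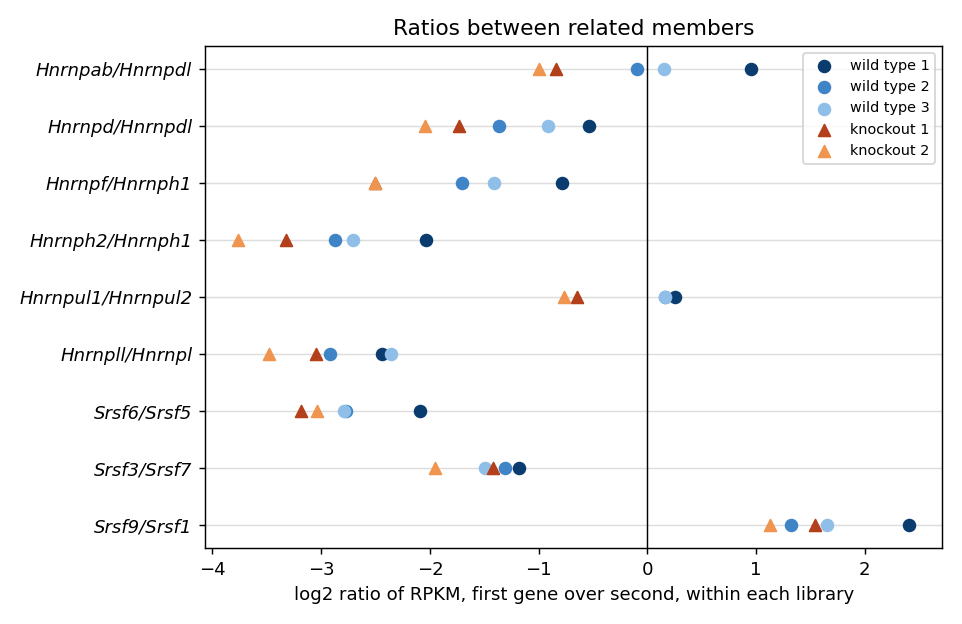
Log2 ratio of RPKM between related members within each library for 9 of the 16 pairs; circles are wild type and triangles knockout libraries, and symbols with the same value cover each other, as the 2 knockout libraries do for Hnrnpf over Hnrnph1. The triangles lie left of all circles in every pair shown but Srsf3 over Srsf7 and Srsf9 over Srsf1. Over all 16 pairs, 10 did not overlap and 6 did. The pairs and the order of the genes in them were chosen with the values known. The share of other gene pairs without overlap was not computed. In the pairs shown, wild type 1 is the rightmost circle except for Hnrnpll over Hnrnpl.

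The 2 families differed little as groups. The median log2 fold change was -0.13 over the 10 Srsf genes, of which 3 were above and 7 below 0, and 0.09 over the 20 Hnrnp genes, of which 12 were above and 8 below 0; over all genes it was 0.003. The difference of the medians, Srsf minus Hnrnp, was -0.22. Leaving out single libraries moved it from -0.34 (without wild type 2) to -0.12 (without wild type 1), with the Srsf median at -0.25 and -0.08 and the Hnrnp median at 0.09 and 0.04 in those fits. The interquartile bounds of the Hnrnp values, -0.33 and 0.37, were further apart than those of the Srsf values, -0.25 and 0.14. Per library, the mean log2 CPM of the Srsf genes, centred per gene, was -0.11, 0.07 and -0.04 in wild type 1 to 3 and -0.004 and 0.08 in knockout 1 and 2, and that of the Hnrnp genes was 0.07, 0.01 and -0.03 against -0.03 and -0.02. For the Srsf genes the genotypes overlapped, wild type 2 lying with knockout 2. For the Hnrnp genes wild type 3 lay with both knockout libraries.

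Sums over members follow the strongest genes. The Srsf genes together had 3001, 4087 and 3739 CPM in wild type and 4610 and 4534 CPM in knockout, with means of 3609 ± 555 (SD, n = 3) and 4572 ± 53.2 CPM (SD, n = 2), a ratio of 1.27 in favour of knockout. Without wild type 1 the ratio was 1.17. Srsf5 made up 32.2% to 43.2% of the sum in wild type and 43.4% and 47.4% in knockout. Without Srsf5 the ratio was 1.14 and the groups overlapped by a very small margin, with wild type 2 at 2423.8 CPM and knockout 1 at 2423.4 CPM. The Hnrnp sum was 4580, 4680 and 4485 CPM in wild type and 4820 and 4918 CPM in knockout, a ratio of 1.06 without overlap. The Hnrnp sum was thus higher in knockout while the median log2 fold change lay on the wild type side. The sum weights genes by their level and the median does not.

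**Figure D4:**
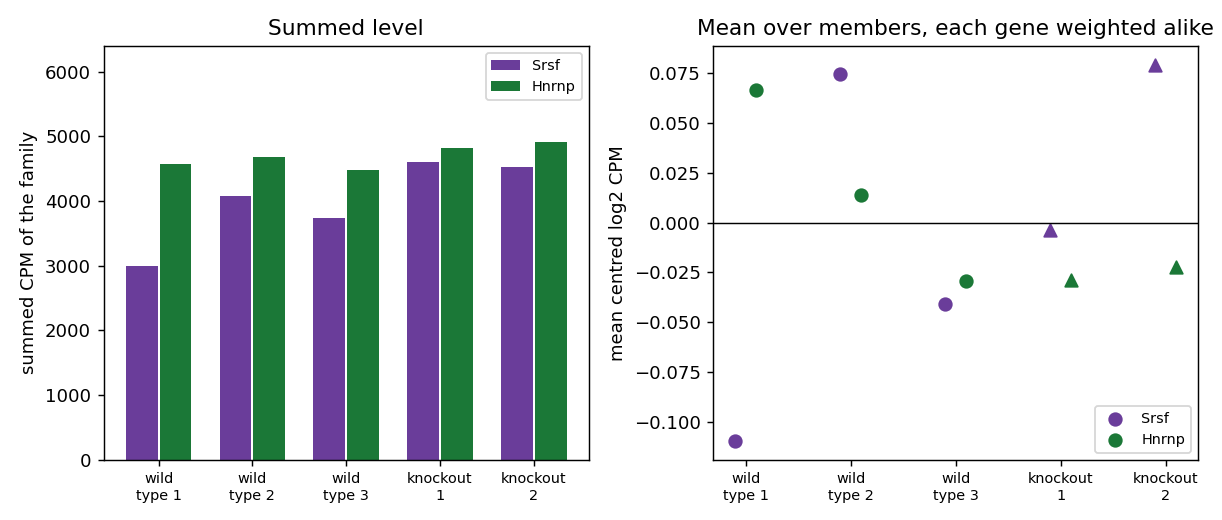
Left, summed CPM of the Srsf and Hnrnp genes in each library; right, the mean over members of log2 CPM centred per gene, with circles for wild type and triangles for knockout libraries. The Srsf sum is lowest in wild type 1 (3001 CPM) and highest in knockout 1 (4610 CPM), while the means over members stay between -0.11 and 0.08.

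Wild type 1, the deepest library, was often the end point of these patterns. It was the wild type library farthest from the knockout mean, on the log2 scale, for 19 of the 30 members (63.3%), against 41.7% of all genes. By family this held for 8 of the 10 Srsf genes and 11 of the 20 Hnrnp genes (55.0%). The 8 were the classical SR genes (Srsf1 to Srsf7 and Srsf9), and neither SR-like gene was among them. For 5 members, all of them hnRNP genes, CPM followed the order of depth over the 5 libraries: Hnrnpab, Hnrnpk and Hnrnph2 had lower values at each step from the deepest to the shallowest library, and Hnrnph1 and Hnrnpdl had higher values. This was 16.7% of the members, against 6.58% of all genes (3.33% with depth, 3.25% against it) and 8.06% of those at member levels. After thinning to equal depth the log2 fold changes were 0.79 for Hnrnpab, 0.24 for Hnrnpk, 0.31 for Hnrnph2, -0.62 for Hnrnph1 and -0.46 for Hnrnpdl. Thinning equalises the counts and not what else differed between the libraries, so depth and genotype still cannot be told apart.

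Gene structure was compared with the differences as a description. Exon length ran from 1360 bases (Srsf9) to 11677 bases (Hnrnpll), and across the 30 members, which share the same libraries, Spearman's rho between exon length and log2 fold change was -0.46. It was -0.37 within the 10 Srsf genes and -0.59 within the 20 Hnrnp genes. Over all 11194 genes it was 0.03. The longest member, Hnrnpll, was at 0.01 and the short Srsf7 (2279 bases) at -0.46, so single genes departed from this order. For the number of exon blocks rho was -0.08. Genes within each family are not independent replicates.

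Related genes of the splicing machinery were counted in the same fit. Of 29 measured SR-related genes, such as the SR-like activators Tra2a and Tra2b and the speckle proteins Son and Srrm2, 0 were called. Of the 29, 5 had values above and 24 below 0, with a median of -0.28. Over all genes 5627 lay above and 5567 below 0. The groups did not overlap for 10 of the 29 (34.5%), against 38.4% of all genes. The summed level of the 29 overlapped between the groups, at 10261 to 14085 CPM in wild type and 12815 and 13745 CPM in knockout. Unadjusted, 7 of the 29 (24.1%) had an edgeR p under 0.05, against 20.4% of all genes and 23.7% of those at member levels. The smallest p belonged to Luc7l3, a U1-associated protein, with 218, 496 and 279 CPM in wild type and 680 and 630 CPM in knockout (log2 fold change -0.99, SE 0.27, adjusted p = 0.0692, edgeR). Wild type 1 was again the lowest library and both knockout libraries were highest.

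Of 17 kinases, phosphatases and import receptors of SR proteins, 1 was called, where 2.05% of all genes were called, and the median was -0.03. Unadjusted, 5 of the 17 (29.4%) had an edgeR p under 0.05, against 20.4% of all genes. The called gene was Srpk3, the muscle-enriched SR protein kinase, higher in knockout with 13.9 and 23.9 CPM against 1.65, 3.56 and 4.42 CPM (log2 fold change -2.54, SE 0.49, adjusted p = 0.0198, edgeR). The 1 called muscle fibre gene, Casq1, had a like profile, with 14.1 and 32.1 CPM in knockout against 4.72, 5.26 and 3.38 CPM in wild type. All 15 muscle fibre genes measured had log2 fold changes below 0, with a median of -1.23. Unadjusted, 10 of the 15 (66.7%) had an edgeR p under 0.05, against 20.4% of all genes. The groups overlapped for 12 of the 15 and did not for 3 (20.0%), against 38.4% of all genes. Their sum was 928 to 1057 CPM in the wild type libraries, 817 CPM in knockout 1 and 3416 CPM in knockout 2. The part of muscle fibre RNA in the Srpk3 value was not tested. Of 41 hnRNP-type proteins under other names 0 were called, with a median of 0.02; the smallest p was that of Pcbp1, the poly(C)-binding hnRNP E1, at 0.70 (adjusted p = 0.0753, edgeR). Of 59 core spliceosome genes 0 were called, with a median of -0.05; the smallest p was that of Sf3b4, a subunit of the U2 particle, at 1.05 (adjusted p = 0.0702, edgeR). Unadjusted, 12 of the 41 (29.3%) and 10 of the 59 (16.9%) had an edgeR p under 0.05, on either side of the 20.4% of all genes. 

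Noncoding RNAs were not called either. Of 8 looked up, most of them nuclear, 4 were measured: Malat1, Neat1, Meg3 and the snoRNA host gene Gas5. Among these 0 were called, all 4 with log2 fold changes below 0 and a median of -0.75. Unadjusted, 3 of the 4 (Malat1, Neat1 and Gas5) had an edgeR p under 0.05, against 20.4% of all genes. The groups did not overlap for Neat1 and Gas5, and overlapped for Malat1 and Meg3. Neat1, the RNA of paraspeckles, had 181, 368 and 315 CPM in wild type and 498 and 668 CPM in knockout (log2 fold change -1.02, SE 0.25, adjusted p = 0.0544, edgeR). Its lowest library was wild type 1, as for Srsf5, Srsf7 and Hnrnph1. The summed level of the 4 was 11246 to 22393 CPM in wild type and 19987 and 28116 CPM in knockout, so that the groups overlapped. Most of that sum was Malat1, at 10357, 18963 and 8936 CPM in wild type and 16073 and 24030 CPM in knockout. The part of nuclear RNA in the members' values was not tested.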

How the data were processed

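The members and gene lists were chosen with earlier results of these data known. The submitters' processing notes name Trim Galore, STAR, featureCounts (Subread), edgeR and mm10, without versions. The annotation and the strand setting are not stated there, and reads of genes that overlap on either strand may be shared. The authors deposited a table of read counts, whole numbers per gene, beside exon lengths. The table had been filtered: the third-highest CPM of a gene was at least 3.02. R 4.3.3 and edgeR 4.0.16 were used on the deposited counts (filterByExpr, which removed no gene, TMM factors, two-sided quasi-likelihood F-test, Benjamini-Hochberg adjustment over 11194 genes, threshold 0.05). DESeq2 1.42.0 and limma-voom (limma 3.58.1), other scaling, filters, thinning and leaving out each library were alternatives. The fit was tested on simulated data. Replicates differed by more than sampling noise (chi-square per degree of freedom 17.7 to 258.5). RPKM used the deposited length. Library by library values were given for the 4 members of smallest p and the 2 of highest RPKM per family; in each related list the called gene or the smallest p was named. RefSeq (GRCm38.p6) matched all 30 members by Entrez identifier and gave overlaps.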

Additional observations from a re-analysis of the deposited data

How the results depend on the processing

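Across 14 alternatives and 30 members, 395 of 420 values kept their direction and their side of the threshold, 10 passed it and 15 turned sign. The number of Hnrnp genes called, 0, became 3 with DESeq2, 1 with at least 10 counts in every library, 1 after thinning, 2 with the replicate number as a block (replicate block) and 0 to 2 when 1 library was left out; that of Srsf genes, 0, became 1 with the replicate block (Srsf5, adjusted p = 0.0489). The labels do not say that the numbers pair the libraries, and deviations of libraries with the same number correlated at 0.05 and 0.04. With 2 knockout libraries, their deviations from the group mean mirror each other, so these values cannot decide whether the numbers pair. All genes called, 230, became 890 with DESeq2, 22 with limma-voom, 612 with the replicate block, 394 after thinning and 34 to 348 with 1 library left out. The Hnrnp median was 0.0495 with total counts and 0.0316 after thinning. Of the fits with 1 library left out, that without wild type 3 called the fewest genes and that without wild type 2 the most. With 1 library left out the Hnrnp median ran from 0.045 to 0.115, the Srsf median from -0.246 to -0.0795 and their difference from -0.337 to -0.125. The values that turned sign had a size of at most 0.1502. Hnrnpll was at -0.0138 with RLE factors, -0.0133 with DESeq2, -0.0364 with total counts, -0.0193 with the replicate block, -0.0018 after thinning, and between -0.0274 and 0.0334 with 1 library left out. Hnrnpa3 was at -0.0289 after thinning, Hnrnpu at 0.0187 and Hnrnpa2b1 at 0.0576 with the replicate block. With 1 library left out, Srsf3 ran from -0.245 to 0.0267, Hnrnpu from -0.117 to 0.012 and Hnrnpa2b1 from -0.193 to 0.1502. The cause of these changes was not tested. With 1 knockout library left, that library is assumed to vary like the others. Srsf4, the member with the fewest counts, had the largest SE of the 30, 0.327.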
